A study of Mus musculus with 2 samples.

Results

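The genes described here mark cells other than macrophages: T cells, B cells, natural killer (NK) and other cytotoxic cells, neutrophils, mast cells and basophils, eosinophils, and dendritic cells. They were taken from a fixed list of 41 names, and every probe set whose only gene symbol in the platform annotation was on that list was included. This gave 57 probe sets for 40 genes, out of 34945 probe sets for 18193 genes with a single symbol. Lck, the remaining name, is not analysed here. The samples were peritoneal macrophages of male C57BL/6 mice, transfected 48 h before RNA extraction either with HDAC9 siRNA (1 Affymetrix array) or with Control siRNA (1 array); both therefore share the transfection itself, and the labels give neither the age of the mice nor whether cells of several mice were pooled. Neither group was replicated, so no spread between samples exists, no test was possible, and each difference below describes these arrays only.

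The peritoneal cavity of a mouse holds large resident macrophages together with B cells, many of them of the B-1 type that carries CD5, and smaller numbers of T cells, NK cells, mast cells, eosinophils and dendritic cells. Macrophages are usually enriched from a wash of the cavity, and lineage-restricted transcripts such as those of the T cell receptor complex or the granule proteases of mast cells then show whether other cells came along. Several genes in common use as lineage markers are not exclusive: Thy1 is also carried by fibroblasts, Lat by mast cells and platelets, and Csf3r and S100a8 by monocytes. In RNA from a mixed preparation, fewer cells of a type and less RNA per cell cannot be told apart.

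A signal was called above background when it exceeded a log2 value of 6.34. This floor is the 95th percentile, over both arrays, of 80 probe sets that read olfactory or vomeronasal receptor genes, which belong to sensory neurons. The common floor was exceeded by 6 of the 80 receptor probe sets on the HDAC9 siRNA array and by 2 on the control array. Of 17 macrophage genes 15 were above background (88.2%), against 66.5% of all genes. Adgre1, which encodes the macrophage surface protein F4/80, stood at log2 12.72 on the HDAC9 siRNA array and 12.71 on the control array. Lyz2, the lysozyme gene, stood at 14.72 on both. The exceptions were Timd4 and Cd163; these 4 genes were named after their values were seen. By the brightest probe set of each gene, the macrophage genes with the largest differences were Cd14 (log2 ratio -0.46), Gata6 (0.46), Fcgr1 (0.43) and Icam2 (0.40); over all probe sets of the list the highest ratio was 0.74. The siRNA target Hdac9 was near the floor. Its probe set 1434572_at had a log2 signal of 5.69 on the HDAC9 siRNA array and 6.88 on the control array, which makes it at least 1.46-fold lower, and its other probe set was below background on both arrays.

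Most marker genes of other leukocytes were at background. On the HDAC9 siRNA array 15 of the 57 marker probe sets were above background (26.3%), against 59.8% of all probe sets with a single symbol. On the control array 13 were above it (22.8%), against 57.6% of all. On either array or both, 16 of the 57 were above background (28.1%), against 62.8% of all; only these have a ratio. Counted by gene, 12 of 40 had a probe set above background on at least 1 array (30.0%), and over all genes the share was 66.5%. The other 28 genes were below it on both arrays. With the dim probe sets of the first 12 genes, 41 marker probe sets lay below the floor on both arrays, and they had log2 signals from 1.28 to 6.17 on the HDAC9 siRNA array and from 0.70 to 6.03 on the control array. The medians of these 41 were 4.06 on the HDAC9 siRNA array and 4.57 on the control array. The 73 sensory receptor probe sets below the floor on both arrays had lower medians, 3.77 and 3.92 on the same arrays. All 12990 probe sets with a single symbol below the floor on both arrays had medians of 4.57 and 4.39. Against these the markers' median was lower on the HDAC9 siRNA array and higher on the control array.

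**Figure D1:**
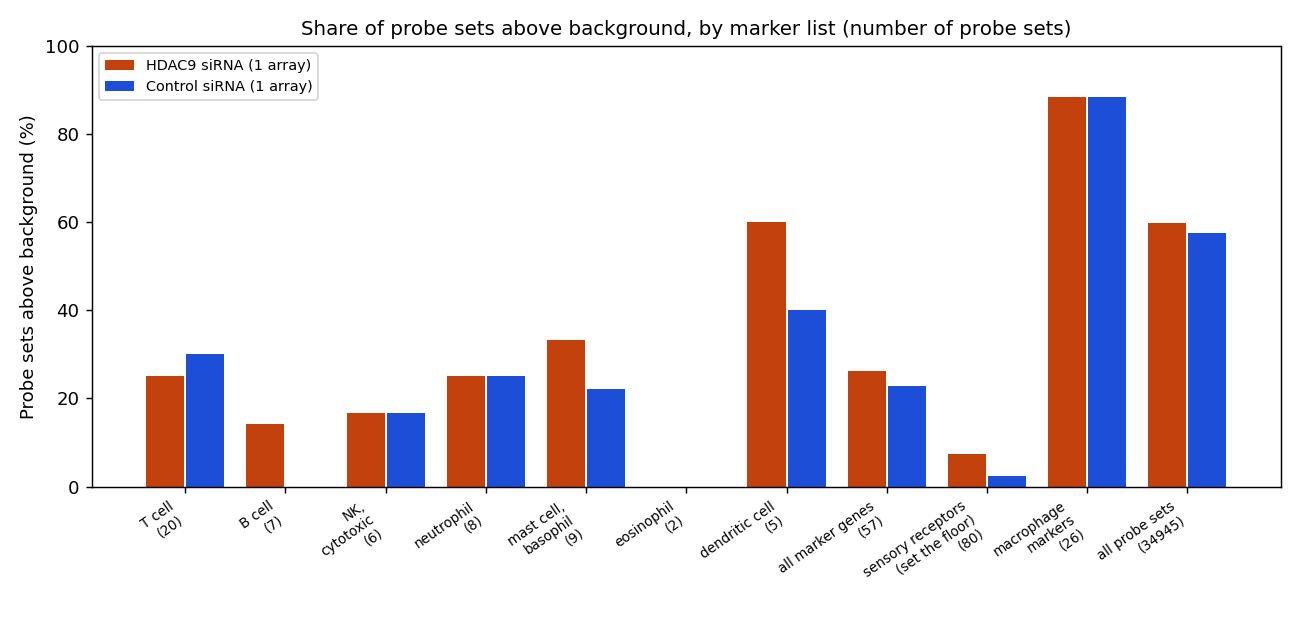
Percent of probe sets above the background floor on the HDAC9 siRNA array (orange, left bar) and the control siRNA array (blue, right bar), for each lineage of marker genes, all 57 marker probe sets, the 80 sensory receptor probe sets that set the floor, the macrophage list and all 34945 probe sets with a single symbol; the number of probe sets is in brackets. The marker genes together stand at 26.3% and 22.8%, the macrophage list at 88.5% on both arrays.

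The CD3 genes of T cells were at background. Cd3d, Cd3e and Cd3g, the signalling chains of the T cell receptor complex, had log2 signals of 2.98, 4.81 and 5.71 on the HDAC9 siRNA array and of 2.69, 4.27 and 4.30 on the control array. The coreceptor genes Cd4 and Cd8b1, the adhesion receptor gene Cd2 and Cd5, which marks T cells and B-1 cells, were also below the floor on both arrays; the coreceptor gene Cd8a, described further on, was above it on the control array by 1 of 5 probe sets. All 3 CD3 genes, whose products every mature T cell carries, thus lay below the floor in both samples.

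Against this, 4 T cell markers were measured above background on both arrays: Cd28, Lat and Thy1, which were lower on the HDAC9 siRNA array, and Zap70, which was higher by 1 of its 3 probe sets. Cd28, the costimulatory receptor that T cells need beside the antigen receptor, had log2 signals of 8.63 on the HDAC9 siRNA array and 9.27 on the control array by probe set 1417597_at, a 1.56-fold lower signal. Its other probe set, 1437025_at, had 8.23 and 9.26 on the same arrays and was 2.05-fold lower, the 1 marker probe set at least 2-fold lower among the 16 with a ratio; over all such probe sets 0.506% were that much lower. The pair of Cd28 probe sets thus had the same direction, with floored log2 ratios of -0.64 and -1.03.

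Lat, the membrane adaptor that links the T cell receptor to calcium and MAP kinase signalling, had a log2 signal of 8.70 on the HDAC9 siRNA array and 9.46 on the control array, which is 1.70-fold lower. Thy1, a glycolipid-anchored surface protein of mouse T cells, stood at 7.03 on the HDAC9 siRNA array and 7.74 on the control array, or 1.64-fold lower. Both genes had 1 probe set each among those with a single symbol. The sequence in front of Lat is shown as an example of the promoter of a T cell marker that was lower; the choice was made after the values were seen. It covers the 250 bases before the gene's start, chr7:126369569-126369818 on the minus strand (RefSeq, GRCm38.p6), written 5′ to 3′, and capitals mark a match to GAGGAA in either orientation, the core recognised by the macrophage factor PU.1:
Lat: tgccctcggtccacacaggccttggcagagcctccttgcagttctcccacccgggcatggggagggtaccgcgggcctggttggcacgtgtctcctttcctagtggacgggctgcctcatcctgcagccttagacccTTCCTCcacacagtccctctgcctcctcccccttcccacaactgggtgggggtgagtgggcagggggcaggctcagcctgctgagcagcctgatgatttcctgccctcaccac
There was 1 match, which begins 113 bases before the start. GAGGAA occurred in 23.3% of 32851 promoter windows of this length, and neither TATAAA nor AGATAA, the core of sites for GATA factors, was found in this window on either strand. The arrays hold no measurement of binding at this sequence.

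The remaining T cell markers with a signal gave readings that depended on the probe set. Zap70, the kinase recruited by the CD3 chains, had log2 9.17 on the HDAC9 siRNA array and 8.71 on the control array by probe set 1439749_at, a 1.38-fold higher signal. Its other 2 probe sets were below background on both arrays, one at 2.70 on the HDAC9 siRNA array and 4.78 on the control array and the other at 6.17 and 5.65 on these arrays. For Cd8a, 4 of 5 probe sets were below background on both arrays. The fifth, 1440164_x_at, had 4.65 on the HDAC9 siRNA array and 7.13 on the control array, at least 1.73-fold lower; the suffix _x_at is given by the manufacturer to sets with probes that can match other sequences.

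In all, 5 of 6 T cell probe sets above background had a ratio below 0 and all 5 were at least 1.5-fold lower, 4 of them measured on both arrays and belonging to 3 genes. Of all probe sets with a ratio, 3.56% were at least 1.5-fold lower. The median floored log2 ratio of the 6 was -0.74, against 0.02 over all. Beyond the listed markers, 2 of 15 other T cell genes were above background (13.3%, against 66.5% of all genes). Il7r, the interleukin 7 receptor chain, stood at log2 13.84 on the HDAC9 siRNA array and 13.79 on the control array. Ubash3a, an inhibitor of T cell receptor signalling, stood at 6.52 and 4.85 on these arrays. Il7r differed by 0.04 log2 units. Whether the lower signals of Cd28, Lat and Thy1 came with a change in any cell type was not tested.

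**Figure D2:**
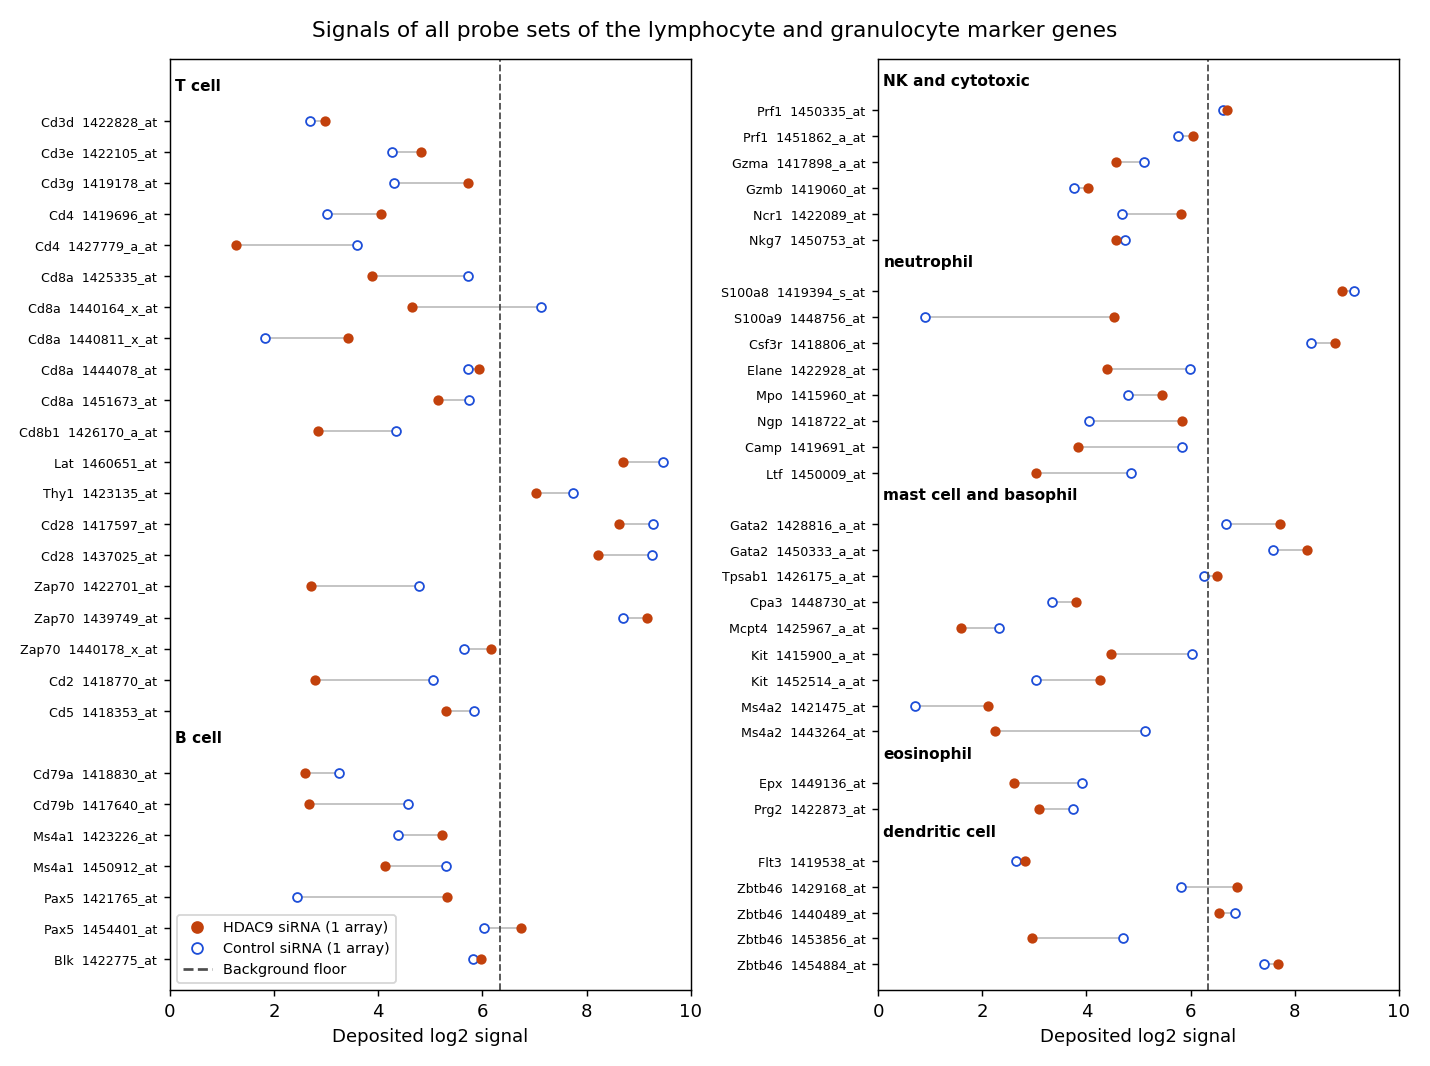
Deposited log2 signal (x axis) of each of the 57 marker probe sets, grouped by lineage, on the HDAC9 siRNA array (filled orange) and the control siRNA array (open blue); the dashed line is the background floor at 6.34. Cd28, Lat and Thy1 lie right of the line with the HDAC9 siRNA point on the lower side, and the CD3 genes lie left of it on both arrays.

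B cell markers gave no signal above background on the control array. Cd79a and Cd79b, the signalling chains of the B cell receptor, had log2 signals of 2.60 and 2.67 on the HDAC9 siRNA array and of 3.25 and 4.57 on the control array. Both probe sets of Ms4a1, which encodes CD20, and the probe set of Blk, a kinase of B cells, were also below the floor, Blk at 5.98 on the HDAC9 siRNA array and 5.81 on the control array. Pax5, the factor that commits cells to the B lineage, was above background by 1 of its 2 probe sets and on the HDAC9 siRNA array only, at 6.74 against 6.03 on the control array, so it was at least 1.32-fold higher; its other probe set was below background on both arrays.

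Several genes often read as B cell genes were nevertheless well above the floor. Of 16 other B cell genes 8 were above background, a smaller share than the 66.5% of all genes. Cd72, a coreceptor, had log2 11.11 on the HDAC9 siRNA array and 11.36 on the control array. Cd22, a sialic acid-binding inhibitor of B cell receptor signalling, had 11.10 and 10.87 on these arrays, and the tetraspanin gene Cd37 had 10.87 and 10.82; both were named after their values were seen. Ighm, the immunoglobulin heavy chain gene of IgM, stood at 8.0 on the HDAC9 siRNA array and 7.63 on the control array by its brightest probe set. Tnfrsf13c, which encodes the BAFF receptor, was above background on the control array only (3.05 on the HDAC9 siRNA array and 6.65 on the control array, at least 0.31 log2 units lower), and Spib, a B cell and plasmacytoid dendritic cell factor, on the HDAC9 siRNA array only (6.60 and 5.95). The 5 of these 8 genes whose brightest probe set was above background on both arrays differed by less than 1.5-fold by that probe set; for the other 3 the ratio is a bound. Of the dimmer probe sets in this list, 1 of Ighm was at least 1.5-fold lower, with a log2 ratio of -0.68.

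Cytotoxic genes were at or near background. Prf1, which encodes the pore-forming protein perforin, was just above the floor by 1 of its 2 probe sets, at log2 6.70 on the HDAC9 siRNA array and 6.63 on the control array. Its ratio of 0.07 turned negative under each of 3 other scalings of the arrays, down to -0.08. The granzyme genes Gzma and Gzmb, the NK receptor gene Ncr1 and the granule gene Nkg7 were below background on both arrays, with log2 signals from 4.03 to 5.82 on the HDAC9 siRNA array and from 3.75 to 5.11 on the control array. Of 11 other NK and cytotoxic genes 1 was above background (9.09%, against 66.5% of all genes). This was the chemokine gene Ccl5, at 7.63 on the HDAC9 siRNA array and 6.86 on the control array. Macrophages make this chemokine too.

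Among the 8 listed neutrophil markers the genes of granule contents were below background and 2 broader myeloid genes were above it. This does not extend to the other neutrophil genes given below. Of those, Mmp8 and Mmp9 were above background on both arrays by their brightest probe sets. Elane, Mpo, Ngp, Camp and Ltf, which encode neutrophil elastase, myeloperoxidase and other granule proteins made by maturing neutrophils, had log2 signals from 3.04 to 5.83 on the HDAC9 siRNA array and from 4.05 to 6.00 on the control array. Csf3r, the receptor for granulocyte colony-stimulating factor, had 8.76 on the HDAC9 siRNA array and 8.31 on the control array, a 1.37-fold higher signal. Of 9 other neutrophil genes 3 were above background (33.3%, against 66.5% of all genes). Mmp8, neutrophil collagenase, stood at 8.73 on the HDAC9 siRNA array and 8.63 on the control array. Mmp9, a gelatinase, stood at 8.07 and 8.02 on these arrays, and Fcnb, a ficolin gene, at 6.38 and 6.05.

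The partner genes S100a8 and S100a9 lay on opposite sides of the floor. Their products pair to form calprotectin, a calcium-binding protein abundant in neutrophils and monocytes. S100a8 had a log2 signal of 8.91 on the HDAC9 siRNA array and 9.13 on the control array by its only probe set, 1419394_s_at, a difference of -0.22. S100a9 was below background on both, at 4.54 on the HDAC9 siRNA array and 0.89 on the control array. The suffix _s_at marks probe sets that can bind transcripts of more than 1 gene. Both genes lie on chromosome 3, and their promoters are shown because the genes are usually read together. Each line holds the 250 bases before the gene's start, 5′ to 3′ (RefSeq, GRCm38.p6; S100a8 at chr3:90668821-90669070, plus strand, and S100a9 at chr3:90695722-90695971, minus strand), with matches on either strand to TATAAA (the TATA box), to GAGGAA and to AGATAA in capitals:
S100a8: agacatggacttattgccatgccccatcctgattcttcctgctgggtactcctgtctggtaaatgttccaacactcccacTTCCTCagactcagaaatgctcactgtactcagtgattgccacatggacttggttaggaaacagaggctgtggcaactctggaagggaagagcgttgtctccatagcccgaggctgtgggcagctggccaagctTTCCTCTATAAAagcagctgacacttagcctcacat
S100a9: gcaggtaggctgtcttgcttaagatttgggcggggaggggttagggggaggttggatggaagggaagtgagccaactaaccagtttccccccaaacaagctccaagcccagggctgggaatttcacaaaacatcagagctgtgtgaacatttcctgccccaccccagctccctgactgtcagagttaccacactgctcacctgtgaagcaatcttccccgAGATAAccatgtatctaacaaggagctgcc
The S100a8 window held TATAAA beginning 30 bases before the start, adjoining 1 of its 2 GAGGAA matches without overlap. The S100a9 window held neither of these but had AGATAA beginning 30 bases before the start. Over all 32851 windows, TATAAA was found in 12.4% and AGATAA in 9.99%. These matches describe the letters only.

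Mast cell and basophil markers gave the single member that was at least 2-fold higher. Gata2, a transcription factor of stem cells and mast cells, had log2 signals of 7.71 on the HDAC9 siRNA array and 6.67 on the control array by probe set 1428816_a_at, which is 2.06-fold higher; 1.44% of all probe sets with a ratio were that much higher. Its other probe set, 1450333_a_at, had 8.23 on the HDAC9 siRNA array and 7.57 on the control array and was 1.57-fold higher. After centring on the median, quantile normalization or loess, no marker probe set was at least 2-fold higher, and the brighter Gata2 probe set had log2 ratios of 0.50, 0.56 and 0.56.

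Other mast cell genes were at or near background. Cpa3, carboxypeptidase A3 of mast cell granules, had 3.80 on the HDAC9 siRNA array and 3.33 on the control array. Mcpt4, a chymase, had 1.59 and 2.31 on these arrays. Kit, the stem cell factor receptor, and Ms4a2, the beta chain of the high-affinity IgE receptor, were below the floor by both of their probe sets. Tpsab1, a tryptase gene with a close relative in Tpsb2, was above the floor on the HDAC9 siRNA array only, at 6.50 against 6.26 on the control array. None of 11 other mast cell and basophil genes was above background, against 66.5% of all genes. Their log2 signals reached 6.303 on the HDAC9 siRNA array and 5.56 on the control array.

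Eosinophil granule genes were at background too. Epx, eosinophil peroxidase, had 2.61 on the HDAC9 siRNA array and 3.91 on the control array, and Prg2, major basic protein, had 3.10 and 3.75. Of 5 other eosinophil genes 1 was above background, against 66.5% of all genes. This was Siglecf, a sialic acid-binding receptor also carried by alveolar macrophages, at 8.13 on the HDAC9 siRNA array and 9.21 on the control array, a log2 ratio of -1.08 by its only probe set. Over all probe sets with a ratio, 0.506% were at least 2-fold lower.

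Of the dendritic cell markers, Flt3, the receptor through which dendritic cell precursors expand, was below background at log2 2.81 on the HDAC9 siRNA array and 2.64 on the control array. Zbtb46, a transcription factor of classical dendritic cells, had 3 of 4 probe sets above background. The brightest, 1454884_at, had 7.67 on the HDAC9 siRNA array and 7.42 on the control array. Probe set 1429168_at had 6.89 on the HDAC9 siRNA array and, below the floor, 5.81 on the control array, at least 1.47-fold higher, while 1440489_at had 6.55 and 6.86 and thus the opposite direction.

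Of 9 other dendritic cell genes 4 were above background (44.4%, against 66.5% of all genes). Itgax, which encodes CD11c and is shared with macrophages, stood at 11.45 on the HDAC9 siRNA array and 11.62 on the control array. Batf3, a factor of the cross-presenting dendritic cell lineage, stood at 7.41 on the HDAC9 siRNA array and 8.04 on the control array. Dpp4, a surface peptidase, had a log2 ratio of -0.30, and Siglech, of plasmacytoid dendritic cells, was above background on the HDAC9 siRNA array only (6.83 and 2.03).

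**Figure D3:**
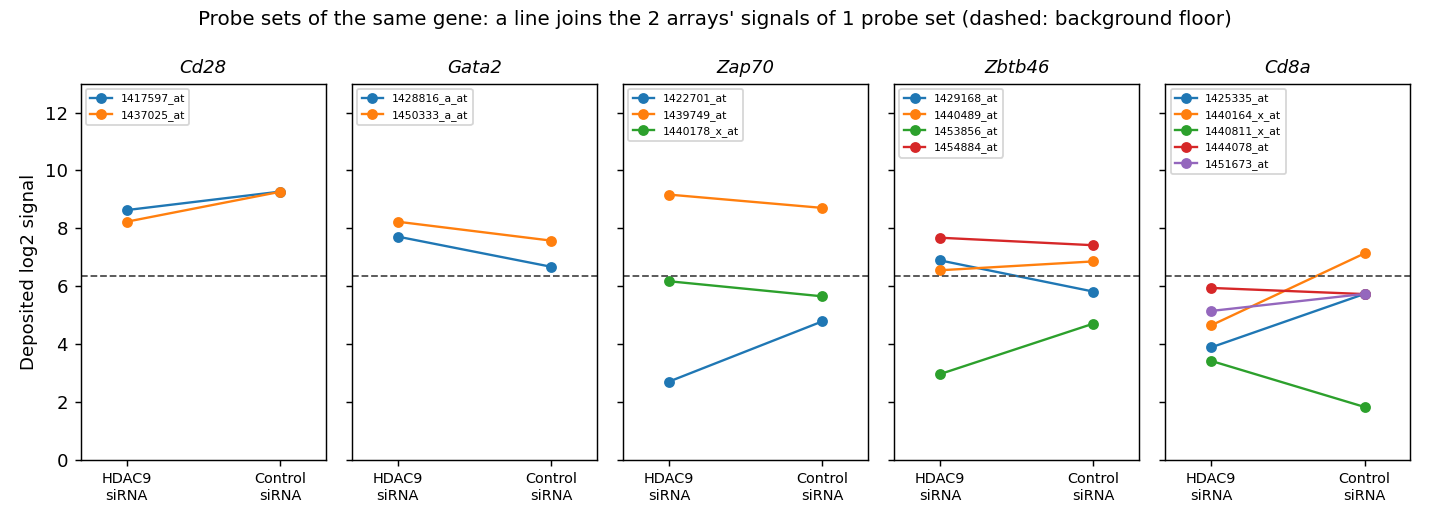
Deposited log2 signal of each probe set of Cd28, Gata2, Zap70, Zbtb46 and Cd8a on the HDAC9 siRNA array (left) and the control siRNA array (right); each line joins the signals of 1 probe set and the dashed line is the floor at 6.34. The probe sets of Cd28 and of Gata2 share a direction, and those of Zap70, Zbtb46 and Cd8a lie on both sides of the floor.

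Probe sets of the same gene often disagreed on whether it was above background. Of the 11 marker genes with several probe sets, 2 (Cd28 and Gata2) had all of them above background on at least 1 array and 4 (Cd4, Kit, Ms4a1 and Ms4a2) had none. The other 5, Cd8a, Pax5, Prf1, Zap70 and Zbtb46, had some above and some below. Of the 29 genes with 1 probe set, 5 were above background: Lat, Thy1, S100a8, Csf3r and Tpsab1.

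The differences were set beside those of other probe sets of similar signal. All probe sets with a ratio were divided into 4 equal bins by mean signal after raising low values to the floor. The 16 marker probe sets fell 7, 4 and 5 into the first 3 bins, from the dimmest up, and 0 into the brightest. In the dimmest bin the 5th and 95th percentiles of the log2 ratio over all probe sets were -0.67 and 0.85, and in the third bin they were -0.43 and 0.56. Below the 5th percentile of their bin lay 5 marker probe sets, those of Lat, Thy1, Cd28 (both) and Cd8a. Above the 95th percentile lay 1, the dimmer Gata2 probe set, and the other 10 lay between.

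**Figure D4:**
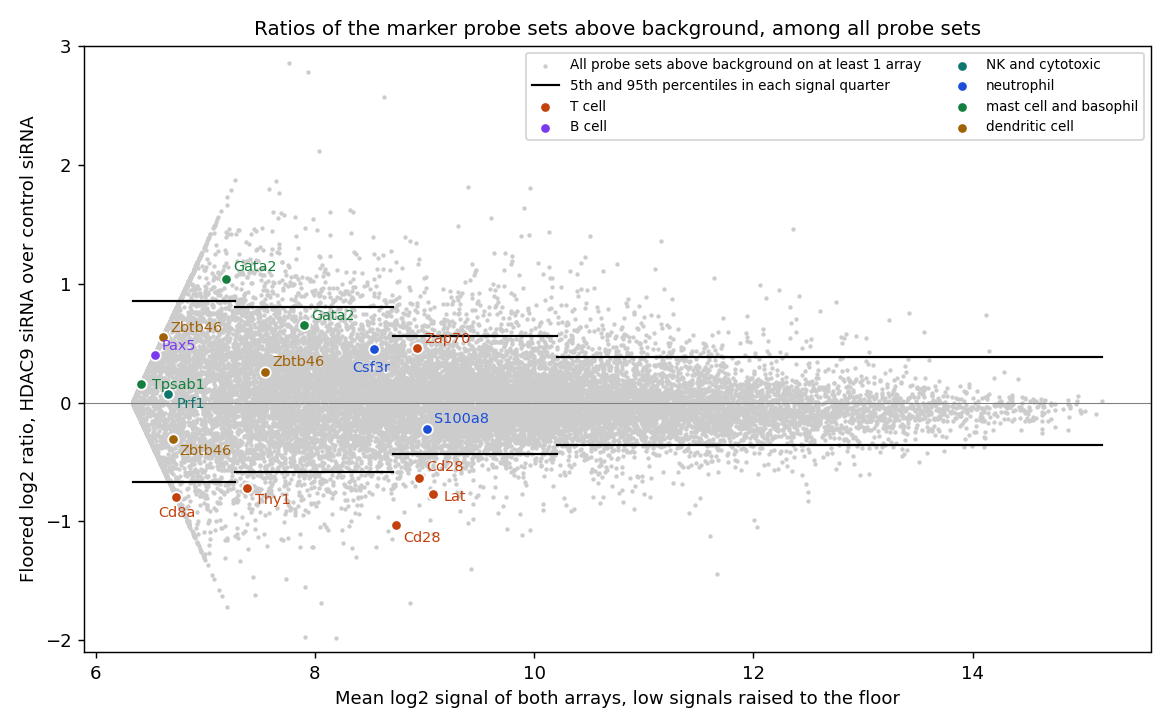
Floored log2 ratio, the HDAC9 siRNA array over the control array (y axis) against the mean log2 signal of both arrays after raising low signals to the floor (x axis), for the 16 marker probe sets with a ratio (coloured by lineage) and all 21955 such probe sets (grey); black lines are the 5th and 95th percentiles within each of 4 signal bins. The points for Cd28, Lat, Thy1 and Cd8a lie below the lower lines and 1 of the points for Gata2 above the upper line.

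The 16 marker probe sets with a ratio had values above 0 in 9 cases and below 0 in 7, and 53.4% of all such probe sets were above 0. At least 1.5-fold higher were 2, both of Gata2, against 8.02% of all. The median log2 ratio of the 16 was 0.12, against 0.02 over all, and it lay between -0.0045 and 0.012 under the 3 other scalings of the arrays. Of the 16, 4 were above background on 1 array only, and for these the ratio is a bound. For scale, probe sets of the same gene, both above background on both arrays, had ratios that scattered with a standard deviation of 0.27 log2 units per probe set over 4953 genes. Among the 1399 genes whose dimmer probe set was among the dimmest 25% of probe sets the scatter was 0.36. The ratios of Lat, Thy1, Cd28 and Gata2 were larger in size than either value. So were those of Zap70 (0.46) and Csf3r (0.45), and the bounds of Cd8a (-0.79), Pax5 (0.40) and Zbtb46 by probe set 1429168_at (0.55). Of these, Zap70, Csf3r, Pax5, that Zbtb46 probe set and the brighter Gata2 probe set lay between the 5th and 95th percentiles of their signal bins. The bounds rest on probe sets above background on 1 array only, whereas the scatter used probe sets above it on both. Both scatter values leave out any difference between cultures.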

How the data were processed

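The values are log2 signals as deposited by the authors, with 1 value for each probe set and array. MAS5, an Affymetrix summary of the probes in a set, is named in the submitters' processing notes without version or settings, and no detection calls were used. After undoing the log2, the mean without the highest and lowest 2% was 497 on both arrays, so the authors' scaling was kept. Of 45037 probe sets, 34945 had 1 gene symbol in a 2016 platform annotation, and 34741 of these matched RefSeq (GRCm38.p6) by gene identifier with 0 symbols changed. The 932 with several symbols and the 9160 with none were not used.

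Signals under the floor were raised to it before each ratio (the HDAC9 siRNA array over the control array) was computed; where 1 signal lay at the floor, the ratio is a bound. Probe sets were counted at 2-fold and 1.5-fold. No test or p-value was computed, and 2 arrays limit the precision. Every listed marker above background is given with its signals, and of each further list at most the 4 genes with the largest ratios by their brightest probe set, unless said otherwise. The markers, lists and motifs were chosen with earlier results of these data known, and the promoters after the values were seen; 31 of the 41 names had a promoter entry. The steps were tested on simulated data. The simulated differences were larger than those of the markers and were placed in probe sets well above the floor, so small differences near the floor were not tested. Python 3.11.15, numpy 2.4.6, pandas 2.3.3 and matplotlib 3.10.9 were used.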

Additional observations from a re-analysis of the deposited data

How the results depend on the processing

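No paired analysis was possible because each group had 1 array. The number of arrays and signals close to background limit these values: 41 of the 57 marker probe sets have no ratio at all. The floor mattered most. With the receptors' 75th percentile as floor, 25 of the 57 marker probe sets were above background on the HDAC9 siRNA array and 27 on the control array, from 22 genes. Of all probe sets with a single symbol, 74.3% and 72.3% were above that floor on the same arrays. At this floor 2 marker probe sets were at least 2-fold higher and 2 at least 2-fold lower. With their 99th percentile 0 were at least 2-fold higher and the median log2 ratio of the marker probe sets was -0.21. With no floor and a pseudocount of 1, all 57 marker probe sets had a ratio, dim ones included, and 10 were higher and 16 lower. The shares over all probe sets are not given for these counts or for those at the 75th percentile. They therefore cannot be read as particular to the markers. The number at least 2-fold higher was also 0 with the floor from a list of tissue-restricted genes, after centring on the median, quantile normalization or loess, and after leaving out the suffixes _s_at, _x_at and _a_at. Leaving out these suffixes removed every Gata2 probe set, so the last of these counts was fixed in advance. At 1.5-fold 2 were higher and 5 lower, and at 3-fold 0 and 0. Centring on the median moved the median log2 ratio of all probe sets above background to -0.12; relative to that shift the markers' median of -0.0045 was higher. Of 107 alternative values for the 12 named genes, 101 moved by less than the scatter between probe sets of a gene. The other 6 were for genes above background on 1 array only, Cd8a (from -2.44 to -0.13) and Pax5 (0.70 with the lower floor and 0.70 with no floor). Cd28, Lat and Thy1 stayed below 0 under all 10 alternatives run for each, with ranges of -0.84 to -0.64, -0.91 to -0.76 and -0.86 to -0.71, and Gata2 stayed above 0 under its 9 (0.50 to 0.85). Changes of floor could not move these values, since both signals lay above every floor used. Only the other scalings, and for Cd28 and Gata2 the median over their probe sets, could move them by more than a trace. The 101 values above likewise include some that could not move. The cause of these shifts was not tested.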
